A study of Mus musculus with 21 samples.

Results

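Of the 21 mammary tumors sequenced, 9 came from mice without the RhoC transgene, and these control tumors were split by their own Rhoc level. The groups were chosen by the measured level of Rhoc, in CPM, the count of a gene divided by the TMM-scaled library total and given per 1e6 counts. The 4 tumors above 80 CPM, N-6, N-8, N-15 and N-17, formed the high group, and the 5 tumors below 60 CPM, N-1, N-3, N-4, N-7 and N-9, formed the low group. Together they hold all 9 control tumors, so no control tumor fell between the limits. All other genes that passed a filter on low counts were then compared between the groups.

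All control mice carried FloxNeoNeuNT, an activated Neu cDNA placed at the Erbb2 locus behind a stop cassette, together with MMTV-CreNLST, a mammary Cre line. In addition, 7 of the 9 carried Gata4(loxP/+), so that Cre removed 1 copy of Gata4 from the same cells. Only N-15 and N-17 lacked this allele, and both were in the high group, so Gata4 genotype and Rhoc group are partly confounded. The 12 tumors of the RhoC cohort, used only for comparison, came from 8 mice of genotype R26(RhoC/+);FloxNeoNeuNT;MMTV-CreNLST, in which Cre also switches on a RhoC transgene at the Rosa26 locus. None of these carried Gata4(loxP/+), so the cohorts differ in that allele as well as in the transgene. The labels name no mouse for R-18, which was taken to come from a mouse of its own. R-21 was used with its labelled mouse Q3738, which the study's sample table gives for R-20. The count of 8 mice is therefore partly assumed. Each control tumor came from a different female virgin mouse, and the age of each mouse was not given in the sources used here, although mice were followed for tumors for more than a year. Each sample was bulk tumor, and MMTV-driven Cre acts mainly in mammary epithelial cells, so RNA of cells without recombination is included. Histology, listed by mouse in the study's sample table, was poorly differentiated adenocarcinoma for N-6, N-8 and N-15 and still to be determined for N-17, and the entry for N-8 also lists a solid nodular carcinoma. In the low group it was poorly differentiated adenocarcinoma for N-3, spindle cell tumor for N-1, complex adenocarcinoma for N-4 and solid nodular carcinoma for N-7 and N-9.

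RhoC is a small GTPase, closely related to RhoA and RhoB. Guanine nucleotide exchange factors (GEFs) load these proteins with GTP, GTPase-activating proteins (GAPs) switch them off, and guanine nucleotide dissociation inhibitors (GDIs) hold them in the cytosol. GTP-bound RhoC engages effectors such as formins and ROCK kinases, which act on actin and myosin, and it is best known for its part in tumor cell movement and invasion.

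Rhoc lies on chromosome 3 at 104788375 to 104794459 of GRCm38. Its proximal promoter is shown, because the groups rest on the RNA level of this gene, as the 250 bases before the RefSeq start, on the plus strand of GRCm38.p6 at chr3:104788784-104789033. The annotation of the deposited tables starts the gene further upstream, so this window lies inside their gene. Capitals mark GGGCGG, the GC box bound by Sp-family factors, on either strand.

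Rhoc: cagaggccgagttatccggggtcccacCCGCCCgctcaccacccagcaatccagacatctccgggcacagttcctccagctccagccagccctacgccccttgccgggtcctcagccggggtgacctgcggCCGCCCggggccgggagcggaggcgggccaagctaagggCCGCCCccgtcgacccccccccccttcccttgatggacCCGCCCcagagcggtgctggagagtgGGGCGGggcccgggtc

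This window holds the motif 5 times. Of the promoters of 12417 tested genes with a RefSeq entry, 55.6% hold it at least once, so its presence is common. The Rhoc transcript is itself rich in G and C, at 59.1%, which places it in the highest of 10 equal bins of tested protein-coding genes.

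In the low group, Rhoc stood at 42.0 CPM in N-1, 38.2 in N-3, 50.7 in N-4, 25.9 in N-7 and 28.0 in N-9. In the high group it stood at 145 CPM in N-6, 172 in N-8, 100.5 in N-15 and 95.9 in N-17. The tumors just outside and just inside the limits were therefore N-4 and N-17, and the means were 37.0 ± 10.2 (SD, n = 5) and 128 ± 36.5 (SD, n = 4). These values chose the groups and are given without a test. The 12 tumors of the RhoC cohort, where transgene and endogenous gene are counted together, ran from 22.7 CPM in R-2 to 147 CPM in R-12, so the control tumors N-6 and N-8 lay in the upper end of that range or above it.

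**Figure D1:**
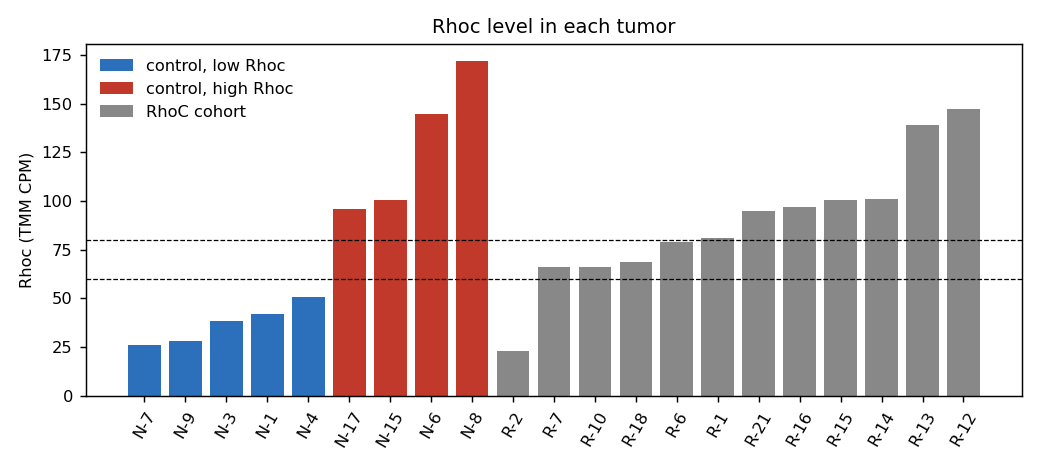
Rhoc in TMM CPM for each tumor, with control tumors in blue (low) and red (high), tumors of the RhoC cohort in gray, and dashed lines at 60 and 80 CPM. The low control tumors sit between 25.9 and 50.7 CPM and the high control tumors between 95.9 and 172 CPM, and only N-8 exceeds the highest RhoC tumor at 147 CPM.

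Per transcript length, on the deposited FPKM scale, Rhoc averaged 90.0 ± 26.2 (SD) in the high and 25.8 ± 7.30 in the low group. RhoA was the most abundant of the 3 close relatives, with Rhoa at 200.1 ± 55.1 FPKM in the high and 193 ± 73.4 in the low group. Rhob averaged 80.7 ± 21.4 and 67.2 ± 24.4 FPKM. Rhoc made up 19.3% to 27.3% of the summed FPKM of the 3 genes in high tumors and 7.10% to 13.4% in low tumors, a split that again follows from how the groups were chosen.

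Total counts ran from 47552423 to 100741339 per control tumor, and log2 totals did not separate the groups (exact permutation p = 0.254, two-sided). With 126 ways to label the tumors, the smallest p such a test can give is 0.00794. By correlation of log2 CPM across genes, 7 of the 9 tumors were closest to a tumor of their own group, while N-6 (high) and N-4 (low) were closest to each other (r = 0.949). N-4 stood apart in base composition. Relative to the mean of the control tumors, its levels had a slope of -0.87 log2 units per 10 percentage points of transcript GC content, while the slopes of the other 8 ran from -0.26 to 0.28. With each tumor's GC trend removed, Rhoc in N-4 came to 6.53 log2 CPM and lay above N-15 at 6.30 and N-17 at 6.24, so that the groups overlapped. The place of N-4 in the split thus depended on its GC trend. The other low tumors stayed at 4.59 to 5.53 log2 CPM, below every high tumor at 6.24 to 7.30. Each trend was fitted to the tumor's own levels, and whether it came from the library or the tumor was not tested. In what follows, the GC offset is a fit with each tumor's GC trend as an offset, and the 2 Gata4 settings are a fit with a Gata4 genotype term and a fit of the 7 Gata4(loxP/+) tumors alone.

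No gene passed an adjusted p of 0.05 among the 19581 tested besides Rhoc (0%, edgeR quasi-likelihood test, Benjamini-Hochberg adjustment), and the lowest adjusted p was 0.179. At an unadjusted p under 0.05 there were 2411 genes (12.3%), 1527 with higher levels in Rhoc-high tumors (7.8%) and 884 with lower levels (4.51%). For 607 genes (3.1%) every high tumor lay above every low tumor, and for 419 (2.14%) every high tumor lay below. DESeq2 called 584 genes on the same tumors at an adjusted p under 0.05, 377 higher and 207 lower, and gave no adjusted p for 1577. Of these 584, 408 had groups that did not overlap, which a choice by p on the same tumors favors. When the spread was estimated from all 21 tumors, edgeR called 41 genes, 30 higher and 11 lower, and DESeq2 called all 41 as well. That fit took the 12 RhoC tumors singly, although 4 came from mouse P497 and 2 from N9255, so its spread treats them as independent. Where the 41 genes lie on the chromosomes was not examined. With plain library sizes in place of TMM, which shifted the median log2 difference of all genes from 0.01 to -0.14, the counts at unadjusted p turned to 969 higher and 1599 lower, so 37.7% rather than 63.3% were higher. Directions below are relative to TMM scaling.

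The gene with the smallest p was Tmem37, which codes for a small membrane protein related to calcium channel gamma subunits. Its level was 12.1 CPM in N-6, 36.1 in N-8, 41.7 in N-15 and 27.6 in N-17, against 2.14 in N-1, 3.09 in N-3, 4.404 in N-4, 2.66 in N-7 and 3.596 in N-9. Every high tumor lay above every low tumor, and the log2 difference was 3.21 ± 0.39 (SE, adjusted p = 0.179). Without N-6, Tmem37 was the single gene that passed (adjusted p = 0.0281).

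Sphk1 codes for sphingosine kinase 1, which makes the signaling lipid sphingosine-1-phosphate, a ligand of receptors that act upstream of RhoA. It stood at 21.9, 10.7, 15.9 and 10.04 CPM in N-6, N-8, N-15 and N-17, and between 1.32 and 3.11 CPM in the low tumors (log2 difference 2.71 ± 0.37, adjusted p = 0.211). Axl, a receptor tyrosine kinase associated with invasion and mesenchymal traits, was tight within both groups. Its levels were 149, 171, 168 and 148 CPM in the high tumors in that order and 72.7, 69.9, 77.8, 70.8 and 53.9 CPM in N-1, N-3, N-4, N-7 and N-9. The log2 difference of Axl was 1.20 ± 0.18 (adjusted p = 0.211).

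Slpi, a secreted inhibitor of leukocyte proteases, had the widest difference among these genes, at 3.43 ± 0.59 log2 units. It stood at 106 CPM in N-6, 248 in N-8, 234 in N-15 and 66.8 in N-17, and at 4.03 to 27.2 CPM in the low tumors. Lama5, the alpha 5 chain of basement membrane laminins, reached 281, 426, 583 and 570 CPM in the high tumors, against 92.7 to 178 CPM. Il4ra, the receptor chain shared by interleukin 4 and interleukin 13, stood at 194, 166, 244 and 195 CPM, against 50.6 to 95.9 CPM. Log2 differences were 1.84 ± 0.29 for Lama5 and 1.55 ± 0.25 for Il4ra (adjusted p = 0.211 for both).

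The other 4 genes with the smallest p on this side were Gdpd5, Acp5, Myadm and Rn7s1, with log2 differences of 1.48, 1.52, 1.81 and 1.73. Acp5 codes for the tartrate-resistant acid phosphatase of osteoclasts and macrophages. Rn7s1 is a copy of 7SL RNA, which has near-identical copies in the genome, so that its count is uncertain. Myadm overlaps another gene in the annotation, so its count is uncertain as well. The same holds for Sphk1, Cpox, Mpc2, Adk and Erbb2 among the genes named in this text. Gdpd5, Acp5, Myadm and Rn7s1 all had groups without overlap, against 3.1% of all genes with higher levels. Their choice by p on these same tumors favors this.

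On the other side, the 10 genes with the smallest p and lower levels in Rhoc-high tumors had adjusted p between 0.216 and 0.252. Upf3b, a factor of nonsense-mediated mRNA decay, stood at 9.12, 6.93, 10.01 and 12.8 CPM in N-6, N-8, N-15 and N-17 and between 18.8 and 29.8 CPM in the low tumors (log2 difference -1.31 ± 0.26). Tia1, an RNA-binding protein of stress granules, stood at 33.1, 32.4, 61.1 and 51.1 CPM against 78.1 to 119 CPM (log2 difference -1.17 ± 0.26). Several of the 10 act in the nucleus: Polr3g is a subunit of RNA polymerase III, Taf15 an RNA-binding protein of the FET family, Kmt5b a histone H4 methyltransferase, and Zfp101 a zinc finger protein. Their log2 differences were -1.70, -0.84, -0.85 and -1.52.

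Metabolic enzymes made up 3 more. Cpox, of heme synthesis, had a log2 difference of -1.08. Suclg2, the GTP-forming succinyl-CoA ligase subunit, came to -1.11, and the lysophosphatidic acid phosphatase Acp6 to -1.61. Acp6 owed its gap to N-1, N-3, N-7 and N-9 at 50.2 to 78.8 CPM, while N-4 at 17.6 CPM lay just above the highest high tumor at 17.4 CPM. Rbm48, at -1.12, overlaps other genes in the annotation. All 10 had groups that did not overlap, against 2.14% of all genes with lower levels, which their choice by p on these same tumors favors.

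**Figure D2:**
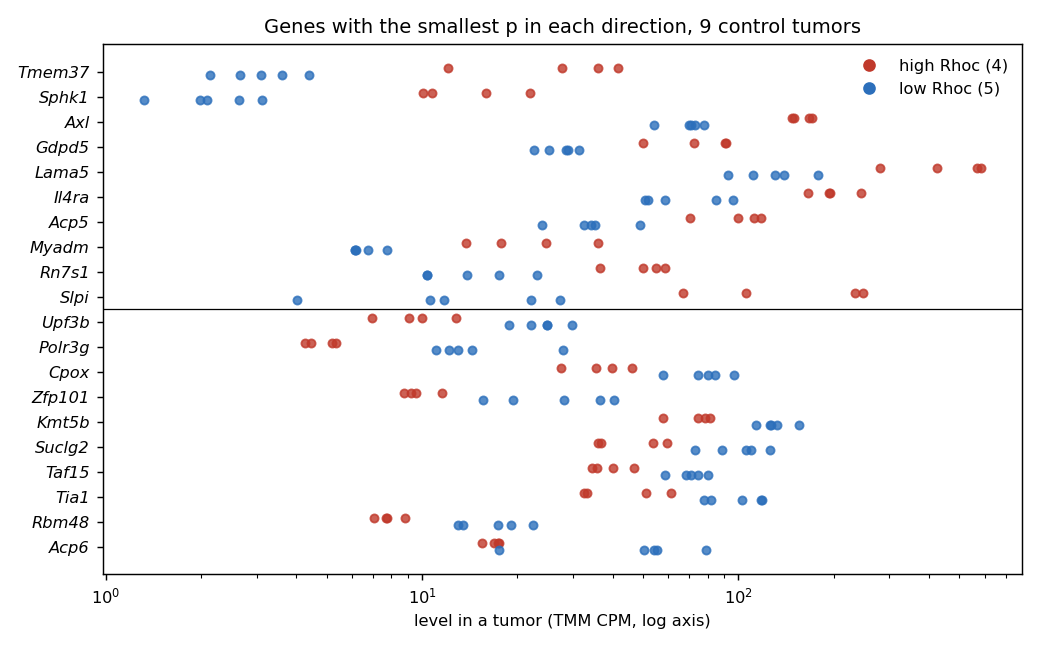
Levels in TMM CPM, on a log axis, of the 10 genes with the smallest p and higher levels (above the line) and the 10 with lower levels (below it) in Rhoc-high tumors, with 1 point per tumor. For each of the 20 genes the 4 red points do not overlap the 5 blue points, with the narrowest gap for Acp6, where N-4 stands at 17.6 CPM and the highest high tumor at 17.4 CPM. The 20 genes were picked by p on these same tumors, which favors groups without overlap.

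The genes that followed Rhoc most closely across the 9 control tumors were found by Pearson correlation of log2 CPM, which is given as a description since these tumors also share library effects. Chmp6, a subunit of the ESCRT-III complex that sorts membrane proteins into endosomal vesicles, had the highest coefficient (r = 0.99). It was followed by Mpc2 (r = 0.98), a subunit of the mitochondrial pyruvate carrier, the myeloid receptor gene Cd300c2 (r = 0.96), Atp6v0b (r = 0.96), a membrane subunit of the vacuolar proton pump, and H2-DMa (r = 0.96), which loads peptides onto MHC class II. Chmp6 ran from 22.7 to 29.6 CPM in high and from 11.95 to 17.7 CPM in low tumors. H2-DMa ran from 15.96 to 28.9 and from 5.91 to 10.7 CPM, and its gene overlaps Brd2. At the other end were Tia1 (r = -0.96), Rbak (r = -0.96), Zfp101 (r = -0.95), 1810024B03Rik and Adk (r = -0.94 for both). Adk, adenosine kinase, stood at 21.4 to 28.2 CPM in high and 35.6 to 56.2 CPM in low tumors.

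Among 24 lists of genes, the one for antigen presentation and interferon response held the most genes with a small p. Of its 25 members, 16 had an unadjusted p under 0.05 and higher levels in Rhoc-high tumors, against 7.8% of all genes, and none had lower levels. In all, 24 of the 25 log2 differences were above 0, against 50.6% of all genes. Their median was 1.43, beside 0.01 for all genes tested, yet no member passed the adjusted threshold in edgeR, and 3 of the 25 had groups that did not overlap, against 3.1% of all genes with higher levels. In DESeq2, 2 members had an adjusted p under 0.05, as had 2 macrophage genes, 3 luminal genes and 3 squamous genes, the last with lower levels, and at most 1 gene in either direction in any other list. The 3 members without overlap belong to MHC class II presentation, by which professional antigen-presenting cells display peptides to helper T cells.

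Ciita, the master regulator of class II genes, stood at 10.01 CPM in N-6, 19.3 in N-8, 16.7 in N-15 and 18.7 in N-17, and at 4.51, 6.64, 7.68, 4.81 and 3.704 CPM in N-1, N-3, N-4, N-7 and N-9. Its log2 difference was 1.57 ± 0.32 (adjusted p = 0.216). Cd74, the invariant chain of class II molecules, stood at 891, 1391, 984 and 619 CPM in the high tumors and at 288, 177, 409, 137 and 68.5 CPM in the low tumors (2.17 ± 0.49, adjusted p = 0.246). H2-Aa, a class II alpha chain, ran from 310 to 500 CPM against 25.1 to 284 CPM (1.94 ± 0.60, adjusted p = 0.296). H2-Ab1 overlapped because N-4 stood at 387 CPM, and H2-Eb1 was the member with a difference below 0, at 24.4 CPM in N-3 and at most 4.44 CPM in each other control tumor.

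Interferon-stimulated members were not counted on their own, but Ifit3 and Isg15 were highest in N-15. Ifit3 stood at 120 CPM in N-15 and between 1.28 and 12.8 CPM in the other 8 tumors, and Isg15 at 67.0 CPM in N-15, 15.1 in N-7 and 1.69 to 13.6 CPM elsewhere. Without N-15, the number of all 25 members, class II genes included, with a small p and higher levels dropped from 16 to 3 and their median to 0.78. Within the 7 Gata4(loxP/+) tumors alone it was also 3, with a median of 0.69, with a Gata4 term it was 4, and without N-9 it was 10. With log2 Rhoc as a continuous term in place of the groups it was also 4, while 24 of 25 slopes were positive. With the GC trend as an offset it stayed at 16, with a median of 1.26.

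Promoters of the list are shown for 2 members, because the arms of the list differ in their known control elements. H2-Aa is shown on the minus strand of GRCm38.p6 at chr17:34287824-34288073, with capitals for CTGATTGG, the core of the Y box of class II promoters. Isg15 is shown on the minus strand at chr4:156200819-156201068, with capitals for TTTC, any 2 bases and TTTC again on either strand, a form of the interferon-stimulated response element.

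H2-Aa: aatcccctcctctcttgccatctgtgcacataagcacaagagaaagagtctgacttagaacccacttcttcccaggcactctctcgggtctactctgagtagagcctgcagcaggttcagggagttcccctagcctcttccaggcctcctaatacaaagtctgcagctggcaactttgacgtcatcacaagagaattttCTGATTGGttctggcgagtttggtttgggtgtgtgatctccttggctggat

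Isg15: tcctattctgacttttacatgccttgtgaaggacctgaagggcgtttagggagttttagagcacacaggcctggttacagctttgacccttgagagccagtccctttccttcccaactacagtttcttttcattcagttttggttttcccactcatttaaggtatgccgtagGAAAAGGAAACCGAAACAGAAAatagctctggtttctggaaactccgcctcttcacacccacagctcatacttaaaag

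Of the 25 members, 18 had a RefSeq promoter entry. The Y box was found in 4 of the 18, namely H2-D1, Tap1, H2-Aa and H2-Eb1, against 5.48% of all tested genes. The response element was found in 8, namely B2m, Stat2, Isg15, Ifit1, Ifit3, Oas1a, Rsad2 and Bst2, against 2.72%. The matches describe these windows and are not shown to be bound. The GC box marked in Rhoc was found in 5 of the 18 (27.8%), against 55.6% of all tested genes with a promoter sequence.

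Macrophage genes separated the groups in part. Of 12 members, 6 had a small p and higher levels in Rhoc-high tumors, against 7.8% of all genes, none had lower levels, against 4.51%, and the median log2 difference was 0.88. In the Gata4(loxP/+) tumors alone the 6 became 3. The complement gene C1qc stood at 120, 131, 158 and 108 CPM in N-6, N-8, N-15 and N-17 and at 38.5, 67.6, 35.4, 40.4 and 20.01 CPM in N-1, N-3, N-4, N-7 and N-9 (1.68 ± 0.32, adjusted p = 0.216). C1qa, C1qb and Csf1r, the receptor for the macrophage growth factor CSF1, also had groups that did not overlap, which makes 4 of 12 against 3.1% of all genes. Csf1r stood at 135 to 212 CPM against 29.1 to 126 CPM. Other macrophage markers did not follow: Lyz2 ran from 321 to 538 CPM in high and from 145 to 910 CPM in low tumors, and Mrc1 from 26.9 to 280.3 and from 23.0 to 296 CPM. The summed level of the list overlapped, at 1438 to 1822 CPM against 533 to 1905 CPM, with the lowest sum in N-9. In bulk tumor, fewer cells of a type and less RNA per cell cannot be told apart.

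T and NK cell genes were near the limit of detection, with a summed level of 9.55 to 31.8 CPM in high and 4.502 to 21.2 CPM in low tumors, and 2 of 14, Cd3d and Cd8b1, had a small p and higher levels, against 7.8% of all genes. The count was 0 with either Gata4 setting, with library size scaling, with all 21 tumors in the fit, and without N-1, N-8, N-9 or N-15, and 1 without N-4 or N-7 or with Rhoc as a continuous term. Of 7 tested B and plasma cell genes, 1, Pax5, had a small p and lower levels, against 4.51% of all genes, resting on N-4 at 1.47 and N-7 at 1.85 CPM. No gene of this list had a small p and lower levels without N-4, N-6, N-7, N-8, N-15 or N-17, with either Gata4 setting or with Rhoc as a continuous term, and 1 had a small p and higher levels without N-15, with either Gata4 setting or with the continuous term. Cd79a was at most 0.416 CPM in every control tumor and did not pass the filter. Of 7 tested neutrophil genes none had a small p, although 2 had one without N-3, 1 without N-6 and 1 in the Gata4(loxP/+) tumors alone. All 7 differences were above 0, but without N-8, 6 were below 0, and Mpo and Cxcr2 were highest in N-8, at 32.7 and 46.5 CPM.

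The luminal keratins Krt8 and Krt18 had groups that did not overlap, 2 of 14 luminal genes against 3.1% of all genes with higher levels. The groups overlapped for the luminal keratins Krt7 and Krt19. Krt8, the keratin of simple and luminal epithelium, stood at 345 CPM in N-6, 555 in N-8, 1551 in N-15 and 379 in N-17, and at 203, 179, 195, 229 and 196 CPM in N-1, N-3, N-4, N-7 and N-9. Its partner Krt18 stood at 387, 423, 951 and 307 CPM, against 152 to 275 CPM. The log2 differences were 1.82 ± 0.43 (adjusted p = 0.253) and 1.41 ± 0.35 (adjusted p = 0.260). Cited1, a transcriptional coregulator of luminal cells, came to 4.55 ± 1.48 but rested on N-8 at 29.4 and N-17 at 7.82 CPM, since the other 7 tumors stood at 0.018 to 1.20 CPM. Epcam, the common epithelial marker, ran from 359 to 958 CPM in high and from 323 to 909 CPM in low tumors, so the tumors of both groups carried the labeled tissue. The other luminal markers Gata3, Elf5, Kit and Prlr had differences below 0, between -0.50 and -0.20, none with a small p. In all, 3 of 14 luminal genes had a small p and higher levels, against 7.8% of all genes, the median was 0.77, and the count was 5 without N-4 or with Rhoc as a continuous term and 2 without N-8. The median was 0.33 without N-17 and 0.39 with either Gata4 setting. The summed level of the list overlapped, at 1887 to 3574 CPM in high and 1352 to 5402 CPM in low tumors, with the highest sum in N-7.

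The epithelial junction list had 2 of 19 members with a small p and higher levels, against 7.8% of all genes: Cldn7 and Cldn3, both claudins of tight junctions. With the GC offset or library size scaling the count was 1, while the count of members with a small p and lower levels went from 1 to 2. Cldn7 stood at 192, 238, 271 and 131 CPM in the high tumors against 46.0 to 124 CPM (1.26 ± 0.33, adjusted p = 0.268). Jup, which codes for plakoglobin, had a log2 difference of -3.55 ± 1.14 that came from 3 tumors: it stood at 14010 CPM in N-1, 8977 in N-7 and 8394 in N-9, and at 208 to 627 CPM in the other 6. N-1, N-7 and N-9 were also the low tumors with the highest summed basal and squamous levels, although N-15 of the high group had 945 CPM over the squamous list, above N-7 and N-9. Trp63, the p63 transcription factor of basal cells, stood at 415, 92.1 and 97.1 CPM there and at 1.26 to 27.4 CPM in the others. The keratinocyte genes Krt10, Krt1 and Dsc3 had log2 differences of -6.55, -7.08 and -8.83 with adjusted p between 0.281 and 0.303, and rested on N-1 with 284, 45.5 and 271 CPM, followed by N-9 or N-7. They were the 3 of 9 tested squamous genes with a small p and lower levels, against 4.51% of all genes, and the count was 7 without N-15 and 2 in the Gata4(loxP/+) tumors alone.

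Genes of the epithelial to mesenchymal transition (EMT), in which epithelial cells gain mesenchymal traits, had 6 members of 26 with a small p and higher levels and 1 with lower levels, against 7.8% and 4.51% of all genes, and 23 differences above 0 (median 0.56), against 50.6%. The 6 became 3 with the GC offset or with all 21 tumors in the fit, and 10 without N-3. Part of this list was named by the study for its comparison of cohorts on these libraries, so it is not independent of them. Tgfb1, the ligand TGF-beta 1, stood at 57.2, 105, 59.3 and 59.1 CPM in N-6, N-8, N-15 and N-17 and at 30.6 to 54.1 CPM in the low tumors (0.83 ± 0.27, adjusted p = 0.297). Bmp1, a protease that processes collagens, stood at 57.1 to 144 CPM against 28.5 to 71.2 CPM. Snai2, the EMT transcription factor Slug, lay below in every high tumor, at 1.54 to 2.65 CPM against 3.83 to 52.8 CPM, with the top value in the spindle cell tumor N-1. The classic mesenchymal genes Vim, Fn1, Zeb1, Zeb2, Twist1 and Cdh2 had differences between -0.23 and 0.90, none with a small p. In the whole list, adjusted p was never under 0.268.

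Targets of serum response factor (SRF) and contractile genes, which report actin signaling downstream of RhoA and RhoC, had 5 members of 25 with a small p and higher levels and none with lower levels, against 7.8% and 4.51% of all genes, with 22 differences above 0, against 50.6%, and a median of 0.51. With the spread estimated from all 21 tumors none had a small p, and with library size scaling or Rhoc as a continuous term 3 had. Lmod1, a muscle actin nucleator, stood at 6.32, 18.5, 6.71 and 18.6 CPM against 1.80 to 5.83 CPM (1.81 ± 0.48, adjusted p = 0.268). Zyx, the focal adhesion protein zyxin, stood at 91.8, 70.6, 132 and 82.4 CPM against 38.6 to 71.5 CPM. Cnn2, Pdlim7 and Fhl2, all actin-linked, had differences of 0.85, 0.88 and 1.002. Srf itself stood at 31.3 to 40.3 CPM in high and 26.1 to 56.1 CPM in low tumors, a difference of -0.05 ± 0.24. Within the 7 Gata4(loxP/+) tumors, and with a Gata4 term, the count of members with a small p and higher levels was 1, the median 0.31, and 16 of 25 differences were above 0. Without N-17, the tumor with the most skeletal muscle RNA, 17 were above 0, 1 had a small p and lower levels, and the median was 0.43. The part of muscle RNA in this list was not tested.

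Of the 20 other GTPases of the family to which RhoC belongs, 3 had a small p and higher levels, against 7.8% of all genes: Rac2, the hematopoietic Rac, at 13.5 to 43.0 CPM against 7.12 to 21.5, Rhobtb2 at 25.5 to 51.3 against 16.9 to 27.0, and Rhog at 21.4 to 29.9 against 7.55 to 18.3 CPM. The count was 5 without N-3, with the GC offset and with all 21 tumors in the fit. The log2 difference was 0.04 ± 0.32 for Rhoa and 0.26 ± 0.32 for Rhob, both smaller than their SE. The sign for Rhoa flipped with library size scaling, and that for Rhob with the GC trend removed or within the Gata4(loxP/+) tumors.

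Arhgdia, which codes for RhoGDI alpha, the main inhibitor that holds RhoA, RhoB and RhoC in the cytosol, stood at 346 CPM in N-6, 407 in N-8, 356 in N-15 and 266 in N-17 and at 226, 252, 203, 232 and 203 CPM in N-1, N-3, N-4, N-7 and N-9. Its groups did not overlap, with a difference of 0.62 ± 0.20 (adjusted p = 0.297). It was the 1 GDI gene of 3 with a small p, against 7.8% of all genes with higher levels and 3.1% with higher levels and no overlap, and with the GC offset or library size scaling none had one. Among 32 tested RhoGEF genes, 4 had a small p and higher levels, against 7.8% of all genes, and 1, Tiam2, lower levels, against 4.51%. With the GC offset or in the Gata4(loxP/+) tumors alone the 4 became 2, and none had a small p and lower levels without N-1, N-8, N-9 or N-17 or with either Gata4 setting, while 2 had without N-4 and 3 without N-15. Vav2, an exchange factor for RhoA and Rac proteins, stood at 43.6, 60.6, 56.4 and 51.0 CPM against 25.6 to 35.4 (0.77 ± 0.19, adjusted p = 0.260), and Prex1 and the hematopoietic Vav1 had small p as well, at 22.9 to 117 and 10.4 to 24.8 CPM in the high and 19.6 to 39.4 and 5.68 to 13.9 CPM in the low tumors. Among 43 RhoGAP genes, 6 had a small p and higher levels, led by Arhgap45, Arhgap22 and Syde1, with differences of 1.15, 1.19 and 1.24, against 7.8% of all genes, and none had lower levels. The 6 became 1 with the GC offset, 2 in the Gata4(loxP/+) tumors alone and 3 with a Gata4 term. Of 28 effectors of RhoA, RhoB and RhoC, 1, the formin Fmnl3, had a small p with higher levels (0.55 ± 0.20), against 7.8% of all genes, and the list's median was -0.12. None had a small p and higher levels with the GC offset, library size scaling, either Gata4 setting or all 21 tumors in the fit, or without N-1 or N-15, while 2 had without N-3 or N-8. The formin gene Diaph1 and the kinase gene Rock1 had differences of 0.30 and -0.39, neither with a small p.

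Caveolins and secreted factors that have been tied to RhoC showed 2 of 9 with a small p and higher levels, against 7.8% of all genes. The count was 1 without N-1, N-3, N-7, N-9 or N-15, with either Gata4 setting, with DESeq2 and with all 21 tumors in the fit. Cav2 stood at 3870 CPM in N-15 and at 22.3 to 141 CPM in the other 8 tumors, and its neighbor Cav1 at 781 CPM in N-15 against 26.7 to 199.7 CPM. Without N-15 the difference of Cav2 was -0.07. Cxcl5, a neutrophil-attracting chemokine, stood at 12.001 to 40.2 CPM in high and 3.66 to 19.8 CPM in low tumors.

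Among cell cycle genes, 22 of 28 had differences below 0, with a median of -0.27, while 50.6% of all genes were above 0. Only Mki67 had a small p with lower levels, 1 of 28 against 4.51% of all genes. The list depended on single tumors: without N-15, 27 were below 0, 7 had a small p and lower levels and the median was -0.88, whereas without N-3, 14 were below 0 and the median was 0.0086, and without N-6 it was -0.020. With either Gata4 setting, 27 were below 0, 2 had a small p and lower levels and the median was -0.86. The proliferation marker Mki67 stood at 86.0, 185, 216 and 149 CPM in N-6, N-8, N-15 and N-17 and at 297, 430, 178, 472 and 255 CPM in N-1, N-3, N-4, N-7 and N-9 (-1.04 ± 0.36, adjusted p = 0.313). Cdc6, a replication licensing factor that lies near Erbb2 on chromosome 11, had a small p the other way, because it stood at 594 CPM in N-8 and at 4.28 to 21.2 CPM in the others. Of 20 ERBB signaling genes none had a small p, although 4 had one and higher levels without N-4 or with Rhoc as a continuous term, 2 without N-15 and 3 in the Gata4(loxP/+) tumors alone, with Hbegf, Spry4 and Areg at differences of 1.14, 0.89 and 1.13.

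Among the control tumors, N-17 held the most skeletal muscle and fat RNA. Ttn stood at 14183 CPM and Ckm at 533 CPM there, against at most 608 and 38.7 CPM in the other 8 tumors. The fat genes Plin4 and Cfd stood at 313 and 285 CPM in N-17, against at most 2.80 and 1.84 CPM. The muscle list summed to 20517 CPM in N-17 and next to 1141 CPM in N-3, a low tumor. The fat list summed to 1584 CPM in N-17 and next to 215 CPM in N-4, also a low tumor. The 8 tested muscle genes and the 5 tested fat genes all had differences above 0, but without N-17 their medians were -5.88 and -1.39. No muscle gene had a small p, whereas 4 had one and higher levels without N-3 and 6 one and lower levels without N-17. Of the fat genes 2 had a small p and higher levels, against 7.8% of all genes, and none had with DESeq2, with Rhoc as a continuous term, with either Gata4 setting or without N-17, and 1 had without N-1, N-7 or N-9. Of 12 endothelial genes, 3, Esam, Plvap and Cldn5, had a small p and higher levels, against 7.8% of all genes, and N-17 was highest for each, at 38.5, 121 and 36.8 CPM. Without N-17 none had a small p and the median went from 0.81 to 0.19. The count was 1 without N-1, with the GC offset, with library size scaling or with either Gata4 setting, and 5 without N-15. Of 14 fibroblast genes, 1, the receptor gene Pdgfrb, had a small p and higher levels, against 7.8% of all genes, at 114, 170, 111 and 122 CPM in the high tumors against 45.7 to 94.7 CPM, with groups that did not overlap. With the GC offset no gene of this list had a small p, and there were 3 without N-3 and 2 without N-6 or N-15 or with Rhoc as a continuous term. The fibroblast median of 0.53 was 0.10 without N-17 and -0.024 with either Gata4 setting. Collagen genes overlapped, with Col1a1 at 616 to 1958 CPM and 91.8 to 1131 CPM. Milk genes varied widely, with none of 8 at a small p, or 1 without N-1 or N-4: Btn1a1, which acts in milk fat secretion, ran from 18.2 to 186 CPM in high and from 1.27 to 109 CPM in low tumors.

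**Figure D3:**
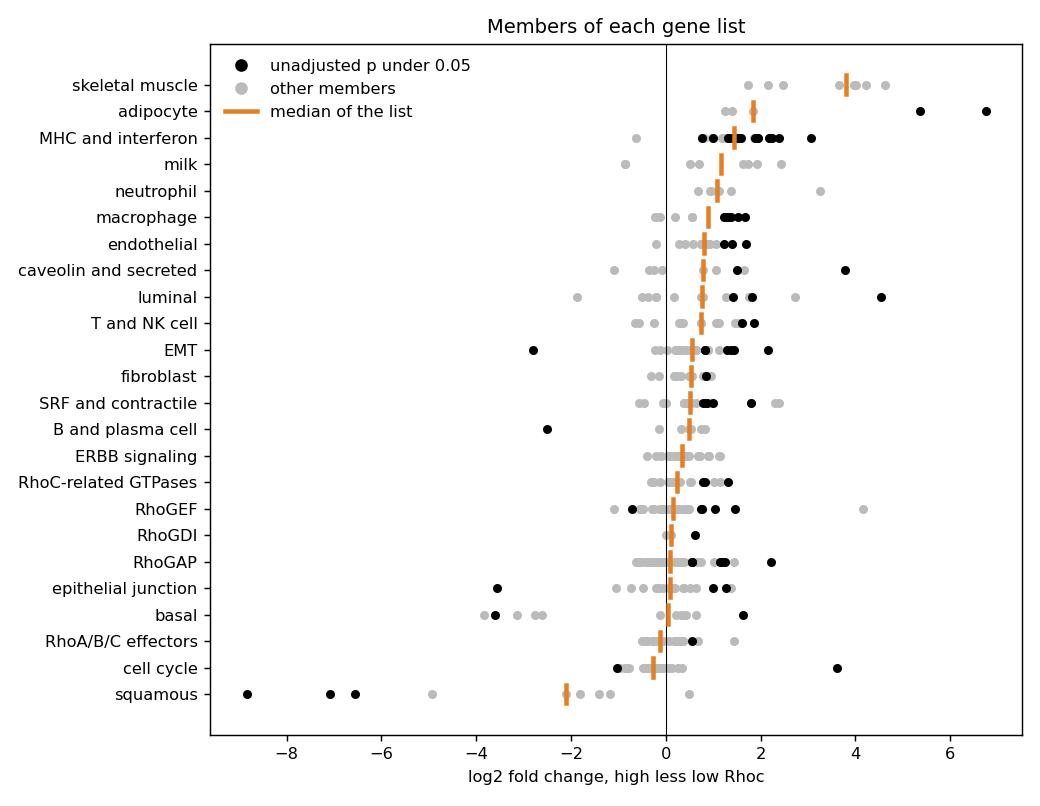
Log2 difference between Rhoc-high and Rhoc-low control tumors for each tested member of 24 gene lists (points, black where the unadjusted p was under 0.05) and the median of each list (orange bar). The antigen presentation and interferon list has 16 black points to the right of 0 and a median of 1.43, while the muscle and fat lists, with medians of 3.81 and 1.83, rest on N-17.

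The engineered genes did not separate the groups. Erbb2, whose locus carries the activated Neu cDNA, stood at 2564 CPM in N-6, 2720 in N-8, 57.8 in N-15 and 1454 in N-17, and at 963, 1705, 1165, 599 and 805 CPM in N-1, N-3, N-4, N-7 and N-9. The mean log2 level was lower in the high group by 0.17 (exact permutation p = 0.952, two-sided). The edgeR fit, which weighs mean counts, gave a difference of 0.70 ± 0.77 in the other direction, and without N-15 the exact test gave 1.14 (p = 0.0536). Gata4 stood at 49.96 CPM in N-15, 29.8 in N-8, 36.4 in N-3 and 7.54 in N-17, and at most at 0.018 CPM in the other 5, a difference of 4.93 in mean log2 level (exact permutation p = 0.175). Among the 7 Gata4(loxP/+) tumors, N-8 and N-3 thus had Gata4 RNA and the other 5 had almost none.

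Genes around Rhoc on chromosome 3 were examined by distance, to see whether neighbors separated the groups as well. Within 0.1 Mb, 8 other genes were tested, 4 with differences above 0 and 4 below. Ppm1j, a protein phosphatase gene 2357 bases away, stood at 1.58, 4.18, 4.57 and 3.24 CPM in N-6, N-8, N-15 and N-17 and at 0.361 to 1.90 CPM in the low tumors (1.84 ± 0.57, unadjusted p = 0.0093). Mov10, an RNA helicase gene 377 bases away, had a difference of 1.57 ± 0.63 (unadjusted p = 0.0318), with 118 CPM in N-15, 15.1 to 32.2 CPM in the other high tumors and 5.18 to 30.7 CPM in the low tumors. Of the other coding genes, Capza1, a subunit of actin capping protein, had a difference of 0.01 and St7l one of -0.21, and Tafa3, at under 1.6 CPM in every control tumor, one of 0.43. Ppm1j and Tafa3 overlap each other, as do Capza1 and St7l.

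Further out, median differences were -0.08 between 0.1 and 0.5 Mb (12 genes), -0.34 between 0.5 and 1 Mb (30 genes), -0.19 between 1 and 2 Mb (31 genes), 0.08 between 2 and 5 Mb (75 genes) and -0.01 between 5 and 10 Mb (125 genes). Many of the nearest features were intronic transcripts, and among protein-coding genes alone the medians ran from -0.12 to 0.84. The value of 0.84 came from only 4 genes between 0.1 and 0.5 Mb, in which N-8, the tumor with the most Rhoc, stood out: its levels of Slc16a1, a lactate transporter, and Cttnbp2nl were 408 and 456 CPM, against 66.6 to 133 and 106 to 219 CPM in the other 8 tumors. These 2 genes were picked after their values were seen. No gene in these windows passed the adjusted threshold, and DNA copy number was not measured in these data.

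**Figure D4:**
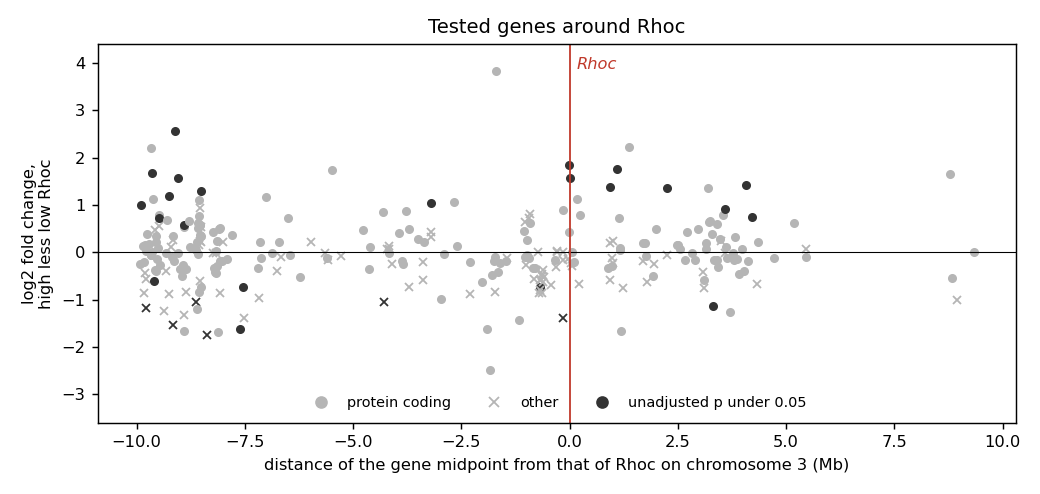
Log2 difference between Rhoc-high and Rhoc-low control tumors against distance from Rhoc for the tested genes within 10 Mb on chromosome 3 (circles, protein coding; crosses, other; dark, unadjusted p under 0.05). The points scatter around 0 on both sides of Rhoc, with Ppm1j at 1.84 and Mov10 at 1.57 next to it.

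Across protein-coding genes, the difference between the groups rose with GC content, and the part of GC content was tested only by the offset below. The GC slopes of single tumors overlapped between the groups. They were 0.16 in N-1, -0.26 in N-3, -0.87 in N-4, 0.18 in N-7 and 0.16 in N-9. In N-6, N-8, N-15 and N-17 they were 0.04, 0.06, 0.26 and 0.28. The bins were not remade without N-4. Protein-coding genes were sorted by the GC content of their longest annotated transcript, available for 14699 of 14718. From the lowest to the highest of 10 bins, the median log2 difference ran from -0.25 to 0.45. Genes with a small p and higher levels numbered 33 in the lowest and 305 in the highest bin, and those with lower levels 134 and 30. Across genes, which are not independent, the correlation of GC content with the difference was r = 0.22. Long noncoding and unconfirmed transcripts lay on the low side, with medians of -0.32 for 574 lincRNA genes and -0.19 for 1317 TEC genes, beside 0.06 for 14718 protein-coding genes. With each tumor's GC trend as an offset, 1220 genes had a small p and higher levels and 804 lower levels. Without N-4 they numbered 1770 and 1093.

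**Figure D5:**
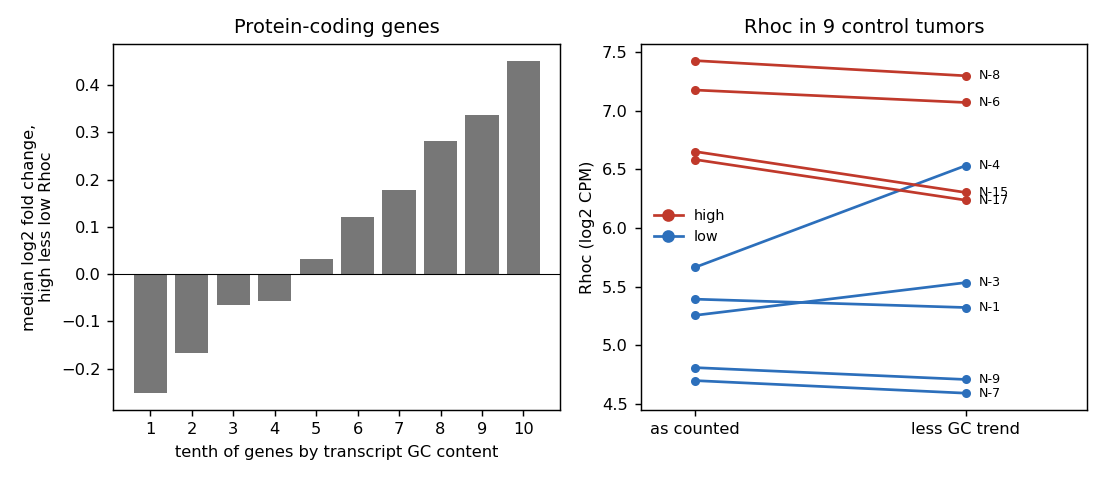
Left, median log2 difference between Rhoc-high and Rhoc-low tumors for 10 equal bins of protein-coding genes by transcript GC content, rising from -0.25 to 0.45. Right, Rhoc in log2 CPM for each control tumor as counted and after removal of that tumor's GC trend, which moved N-4 (low) to 6.53, above N-15 (6.30) and N-17 (6.24) of the high group.

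The RhoC cohort gave tumors that the split did not use. There, levels were regressed on log2 Rhoc over 8 mice, with counts summed for tumors of 1 mouse, and a slope gives the log2 difference per doubling of Rhoc. No gene passed the adjusted threshold in edgeR among 21253. At an unadjusted p under 0.05, 493 slopes were positive (2.32%) and 812 negative (3.82%), and 51.2% of all slopes were positive. DESeq2 on the same sums called 218. The same regression over the 9 control tumors also called no gene, with 2191 at an unadjusted p under 0.05. The lowest adjusted p there was 0.143, shared by Slpi, Cd74, Acp5, Zfp101, H2-DMa and Tia1 among the genes above.

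Class II genes had opposite signs in the 2 cohorts. The slope of Cd74 was 1.33 ± 0.18 over the control tumors and -0.65 ± 0.42 over the RhoC mice, that of Ciita 0.83 ± 0.18 and -0.92 ± 0.28, and that of H2-Aa 1.35 ± 0.26 and -0.77 ± 0.42. In a joint fit over 17 mice, the difference of slopes was -1.98 ± 0.45 for Cd74 (adjusted p = 0.134) and -1.74 ± 0.33 for Ciita (adjusted p = 0.0733), so neither passed. For the whole list, 3 of 25 slopes were positive in the RhoC mice, against 51.2% of all genes. These signs rested on mouse N8907, whose only sequenced tumor, R-2, had the least Rhoc: without this mouse, 23 of 25 slopes were positive.

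The contractile list had positive slopes for 23 of 25 genes in the RhoC mice, against 51.2% of all genes, 8 of them at an unadjusted p under 0.05, against 2.32%, and still 21 of 25 positive without mouse N8907. The slope of Zyx was 0.91 ± 0.22 there and 0.32 ± 0.16 over the control tumors. All 26 EMT genes had positive slopes in the RhoC mice, against 51.2% of all genes, 3 at an unadjusted p under 0.05, against 2.32%, and 24 were positive without N8907. Of the genes that led the split, Myadm had slopes of 0.88 ± 0.18 in controls and 0.84 ± 0.26 in RhoC mice. Axl had 0.61 ± 0.10 and 0.18 ± 0.33, and Sphk1 1.35 ± 0.24 and -0.62 ± 0.36. Of the 10 genes with higher levels, 9 had positive slopes in the RhoC mice, the 10 slopes ran from -0.62 to 1.03, and Myadm was the 1 with an unadjusted p under 0.05, while 51.2% of all slopes were positive. Of the 10 with lower levels, 3 had negative slopes there, and none had an unadjusted p under 0.05.

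Across all genes, 17 of 22716 (0.0748%) had a slope that differed between the cohorts at an adjusted p under 0.05, all lower in the RhoC mice, and 1513 (6.66%) had an unadjusted p under 0.05. Without mouse N8907 no gene differed, and 678 had an unadjusted p under 0.05. The 17 include Spib, a transcription factor of B cells and plasmacytoid dendritic cells, at 789 CPM in R-2 and at most 4.33 CPM in any other RhoC tumor, and Il4i1, an amino acid oxidase of immune cells, at 153 and at most 1.73 CPM. A run of 4 neighbors on chromosome 11, Map3k14, Arhgap27, Gosr2 and Nsf, stood at 689, 725, 1238 and 1022 CPM in R-2 and at most at 197 CPM in the other RhoC tumors. These 6 genes were picked after their values were seen.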

How the data were processed

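RNA of 21 mouse mammary tumors was analysed, 9 from controls and 12 from the RhoC cohort. The deposited files hold raw counts per gene for each tumor, as whole numbers, which the authors made with FastQC 0.11.5, Trim Galore 0.5.0, STAR 2.6.0c and HTSeq 0.6.1p2 on GRCm38.p6, as named in the submitters' processing notes. Libraries were made with a stranded total RNA kit after removal of ribosomal RNA, and the strand setting of the counting is not given in the sources used here, so overlapping genes are uncertain. A table with FPKM values scaled by the authors gave gene names and positions and the levels per length, and its columns of the authors' own comparison (fold changes and p-values) were not used. Depth was 47552423 to 100741339 counts per control tumor. The 9 control tumors came from 9 mice.

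Rhoc CPM used TMM factors from all 21 tumors. High was over 80 CPM and low under 60 CPM. Genes passing filterByExpr by group were tested in R 4.3.3 with edgeR 4.0.16 (glmQLFit and glmQLFTest), without covariates, on 19581 genes besides Rhoc, with Benjamini-Hochberg adjustment at 0.05. A small p in the text is an unadjusted p under 0.05. SE is the log2 difference divided by the square root of F. Log2 CPM used a prior count of 2. Erbb2, Gata4 and total counts were tested by exact permutation over 126 labelings. Slopes on log2 Rhoc were fitted with edgeR over 8 RhoC mice and, with an interaction term, over 17 mice. Alternatives were DESeq2 1.42.0, library sizes, TMM from the controls alone, all genes with 1 count, a Gata4 genotype term, the 7 Gata4(loxP/+) tumors alone, Rhoc as a continuous term, all 21 tumors, and each tumor left out. The GC offset and the fit without mouse N8907 were chosen after seeing the data. GC content came from GENCODE transcripts of GRCm38, and promoters from RefSeq. The steps were tested on simulated data.

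The groups, lists and rule for named genes were chosen with earlier results of these data known. Named genes are the engineered genes, the 10 with the smallest p in each direction and mean log2 CPM over 0, the 5 with the highest and the 5 with the lowest correlation with Rhoc, up to 3 with the smallest p per list, Rhoa, Rhob and the genes within 0.1 Mb of Rhoc. Other list members are named as defining markers. Some list members are not reported here.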

Additional observations from a re-analysis of the deposited data

Results flagged for a closer look

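In groups of 4 or 5 tumors, a tumor was singled out where its distance to the nearest other tumor took up an unusually large share of the group's range (Dixon's test at 95%, which flags about 1 group in 20 by chance). Of 212 groups of values checked, 13 stood out. Among high tumors, N-15 was low for Erbb2 at 5.85 log2 CPM and high for Cav2 at 11.92 and Fmnl3 at 6.56. N-17 was high for Ttn at 13.79, Ckm at 9.06, Pparg at 4.75 and 1810024B03Rik at 0.78, all in log2 CPM. N-8 was high for Tgfb1 at 6.72. Among low tumors, N-3 was high for Gata4 at 5.19, Polr3g at 4.80 and Mpo at 1.90, N-1 was high for Snai2 at 5.72, and N-4 was low for Rbak at 3.79. The slope on Rhoc differed between cohorts for 17 genes by the interaction test (edgeR quasi-likelihood test). Without mouse N8907 no gene differed, although A730036I17Rik, Gm41492 and Gm11218 of the 17 were then not tested. No explanation of these values was tested.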

How the results depend on the processing

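The count of genes at an adjusted p under 0.05, 0 in edgeR, was 584 with DESeq2, 41 with all 21 tumors singly in the fit and 0 to 1 with each tumor left out. At an unadjusted p, genes with higher levels numbered 969 with library size scaling, 909 with a Gata4 genotype term and 899 in the Gata4(loxP/+) tumors alone, beside 1527. Those with lower levels numbered 1599 with library size scaling, and 589 (without N-8) to 1093 (without N-4) with each tumor left out, beside 884.

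Medians of gene lists moved as follows. With library size scaling, RhoGEF genes came to -0.028 and effectors to -0.23, and with the GC offset RhoGEF genes came to -0.023. With the Gata4 term and in the Gata4(loxP/+) tumors alone, respectively, the medians were 0.31 and 0.31 for contractile genes, -0.011 and -0.011 for genes tied to RhoC, 0.39 and 0.39 for luminal, -6.72 and -6.72 for squamous, -1.05 and -1.07 for fat and -6.07 and -6.07 for muscle genes. With each tumor left out, medians ran from 0.013 to 0.42 for GDI genes, -0.20 to 0.029 for effectors, 0.042 to 1.14 for genes tied to RhoC, 0.33 to 1.11 for luminal, -6.79 to -1.42 for squamous, -1.06 to 1.42 for neutrophil, -1.39 to 2.38 for fat, -5.88 to 6.997 for muscle and 0.27 to 0.72 for ERBB signaling genes. Medians of other lists also moved by more than 1.5 times or turned sign, but by less than 1 SD between tumors. With either Gata4 setting they were -0.86 for cell cycle (-0.27 as reported), -0.024 for fibroblast, 0.23 for endothelial, 0.42 for epithelial junction, -0.30 for basal, 0.32 for T and NK cell, 0.84 for B and plasma cell, 1.73 for neutrophil, 0.63 for ERBB signaling, 0.033 for RhoGAP, 0.23 for GDI, -0.19 for effector and 0.69 for antigen presentation and interferon genes. With library size they were -0.47 for cell cycle, -0.066 for epithelial junction, -0.17 for basal, -0.11 for GDI, -0.0096 for RhoGAP, 0.0996 for other GTPase, 0.30 for B and plasma cell and 0.19 for ERBB signaling genes, and with the GC offset -0.014 for GDI, -0.043 for epithelial junction, -0.13 for basal and 0.35 for fibroblast genes. With each tumor left out they ran from -0.88 to 0.0086 for cell cycle, 0.10 to 0.82 for fibroblast, 0.19 to 1.04 for endothelial, -0.0077 to 0.34 for epithelial junction, -0.40 to 0.30 for basal, 0.49 to 1.57 for milk, 0.33 to 0.87 for EMT, 0.35 to 1.14 for T and NK cell, 0.051 to 0.68 for B and plasma cell, 0.072 to 0.21 for RhoGEF, -0.015 to 0.205 for RhoGAP and 0.78 to 1.91 for antigen presentation and interferon genes. For protein-coding genes within 0.5 Mb of Rhoc the median was 0.49 with either Gata4 setting and 0.31 to 0.91 with each tumor left out. Within 1 Mb it was -0.18 with library size, 0.11 with either Gata4 setting, 0.17 with the GC offset and -0.052 to 0.095 with each tumor left out.

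Some single genes turned sign. Library size scaling gave -0.081 for Rhoa and -0.15 for Capza1, DESeq2 gave -0.0087 for Capza1, and the GC offset gave -0.034 for Rhob. With the Gata4 term and in the Gata4(loxP/+) tumors alone, the values were -0.084 and -0.084 for Rhob, -0.44 and -0.44 for Tafa3, -0.20 and -0.20 for Cav2, -1.57 and -1.57 for Cav1, -1.32 and -1.32 for Plin4, -1.05 and -1.07 for Cfd, -0.64 and -0.64 for Pparg, -5.36 and -5.36 for Ttn and -6.78 and -6.78 for Ckm. With each tumor left out, values ran from -0.088 to 0.30 for Rhoa, -0.20 to 0.64 for Tafa3, -0.13 to 0.15 for Capza1, -0.068 to 4.19 for Cav2, -2.25 to 5.74 for Mpo, -0.68 to 1.448 for Cxcr2, -1.84 to 5.77 for Plin4, -1.63 to 7.62 for Cfd, -0.72 to 2.30 for Pparg, -5.57 to 6.97 for Ttn, -7.14 to 7.12 for Ckm and -0.17 to 4.01 for Cdc6. The lowest values of Plin4, Cfd, Pparg, Ttn and Ckm were without N-17. The Erbb2 difference ran from -0.71 to 1.14.

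With the GC trend removed, Rhoc in the lowest high tumor was 0.29 below that of the highest low tumor (a gap of -0.29). The slope in the RhoC cohort called 100 genes with 12 tumors singly and 218 with DESeq2, against 0. The slope difference called 26 with 21 tumors singly and 0 without mouse N8907, against 17. The cause of these shifts was not tested.

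No paired analysis was possible because the high and low groups share no replicate numbers. With 4 and 5 tumors chosen by the level of a gene, and Gata4 genotype and GC trend partly aligned with the choice, effects of Rhoc, genotype, histology and library cannot be told apart.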
